A study of Camellia sinensis with 12 samples.

Results

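The glutamine synthetase genes described here are 3 of the 52332 genes in the table of leaf counts. They were chosen by identifier and description. MSTRG.46808 is described as glutamine synthetase 2, and MSTRG.11376 and MSTRG.1757 are both described as glutamine synthase clone R1. RNA was sequenced from plucked shoot tips (a bud with its youngest leaves) of the tea cultivar Longjing43, withered in a climate chest at constant temperature for 0, 9, 15 or 24 h, with 3 libraries per time. All groups share the cultivar, the tissue and the chest. There were no unwithered shoots at 9, 15 or 24 h, so withering, time since plucking and time of day cannot be told apart. The sources used here differ on whether the chest was dark or lit. If it was dark, darkness is a further factor that cannot be told apart from withering and time. Separate leaf batches for the 3 libraries of a time are not stated, and the p-values cover only the spread among these libraries, which may be technical.

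Glutamine synthetase joins ammonium to glutamate to make glutamine, and is the main entry of ammonium into amino acids in plants. The plastid form, GS2, takes up the ammonium made by nitrite reduction and by photorespiration in green leaves. The cytosolic forms, GS1, belong to a small gene family that is known for moving nitrogen out of ageing or stressed leaves and through the vascular tissue. In Arabidopsis, glutamine synthetase 2 is the plastid enzyme and the gene called clone R1 encodes a cytosolic one. In tea leaves the glutamine and glutamate pools also border on theanine, the amino acid that these leaves are known for.

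In the scaffold coordinates of the table, MSTRG.46808 (CSS030824) lies on Scaffold793 from 1051266 to 1057551 on the minus strand, a locus of 6286 bp. MSTRG.11376 (CSS043906) lies on Scaffold1785 from 17028 to 23236 on the plus strand, a locus of 6209 bp. MSTRG.1757 (CSS018046) lies on Scaffold110 from 831895 to 837558 on the minus strand, a locus of 5664 bp. The loci include introns, and the table gives no transcript lengths. Levels are therefore compared between times within a gene, and between genes only as changes of a ratio. A further 4 genes carry a glutamine synthetase or glutamate-ammonia ligase description and are given after the 3.

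The libraries held 64931031 to 118261728 counts, and all 3 genes passed the filter on low counts that left 26712 genes in the test. Levels are CPM, counts scaled to library size with factors from the trimmed mean of M values (TMM), and are given with the SD over 3 libraries. A change was called at an adjusted p under 0.05 in edgeR's quasi-likelihood test. The comparisons with 0 h share the 0 h libraries. Leaves hold many cell types, and fewer cells of a type and less RNA per cell cannot be told apart in such bulk samples.

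The plastid-type gene fell at every step of withering. MSTRG.46808 stood at 376, 386 and 393 CPM in the 0 h libraries and at 175, 176 and 180 CPM in the 9 h libraries. The 15 h libraries had 121, 117 and 133 CPM, and the 24 h libraries 35.3, 27.7 and 29.0 CPM. No library of a later time reached the lowest library of an earlier one, so the groups did not overlap. The level was 2.18-fold lower at 9 h than at 0 h, and the log2 fold change was -1.12 with an SE of 0.089 (edgeR, adjusted p = 2.51e-07), and the other fold changes are given as the change ± SE. At 15 h the log2 fold change against 0 h was -1.64 ± 0.091 (edgeR, adjusted p = 5.86e-09). By 24 h the level was 12.6-fold lower, a log2 fold change of -3.65 ± 0.098 (edgeR, adjusted p = 3.08e-12), and -4.32 with library size alone in place of TMM. Of all genes tested, 6.29% fell by more than MSTRG.46808 at 24 h against 0 h.

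The middle step was the smallest of the 3 for this gene. From 9 to 15 h the log2 fold change was -0.52 ± 0.089 (edgeR, adjusted p = 0.000473), a level 1.43-fold lower at 15 h. From 15 to 24 h it was -2.01 ± 0.092 (edgeR, adjusted p = 2.12e-09), a level 4.03-fold lower at 24 h. The middle step was also the shortest in hours.

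The clone R1 genes followed different courses although they share a description. MSTRG.11376 had 125, 138 and 148 CPM in the 0 h libraries and 454, 443 and 416 CPM in the 9 h libraries. The 15 h libraries had 427, 456 and 496 CPM, and the 24 h libraries 232, 188 and 204 CPM. The 9 h and 15 h libraries overlapped, and both lay above all libraries at 24 h, which in turn lay above all libraries at 0 h on this scaling. Against 0 h the level was 3.20-fold higher at 9 h, a log2 fold change of 1.68 ± 0.097 (edgeR, adjusted p = 1.06e-08). It was 3.36-fold higher at 15 h, a log2 fold change of 1.75 ± 0.097 (edgeR, adjusted p = 5.93e-09). Of all genes tested, 9.17% rose by more at 9 h against 0 h.

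After 15 h MSTRG.11376 fell. The log2 fold change at 24 h against 15 h was -1.15 ± 0.095 (edgeR, adjusted p = 4.21e-07), a level 2.21-fold lower. The net change at 24 h against 0 h was 0.60 ± 0.094 (edgeR, adjusted p = 6.61e-05), a level 1.52-fold higher. This last call depends on the scaling. With library size alone the log2 fold change at 24 h against 0 h was -0.065 (edgeR, adjusted p = 0.471), and the median of all genes shifted by -0.67 on the log2 scale. The TMM factors were 0.758 to 0.793 at 24 h and 1.21 to 1.24 at 0 h. The rises at 9 and 15 h and the fall after 15 h were called under each of the 3 scalings tried.

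MSTRG.1757 fell in the first 9 h, held its level to 15 h and fell again by 24 h. The 0 h libraries had 934, 1010 and 982 CPM, and the 9 h libraries 517, 512 and 521 CPM. The 15 h libraries had 510, 522 and 566 CPM, and the 24 h libraries 272, 214 and 240 CPM. The 0 h libraries were above all others, the 24 h libraries were below all others, and the 9 h and 15 h libraries overlapped. The level was 1.89-fold lower at 9 h than at 0 h, a log2 fold change of -0.92 ± 0.085 (edgeR, adjusted p = 1.12e-06). At 15 h against 0 h the log2 fold change was -0.87 ± 0.085 (edgeR, adjusted p = 1.38e-06). At 24 h the level was 4.03-fold lower than at 0 h, a log2 fold change of -2.01 ± 0.088 (edgeR, adjusted p = 2.36e-10), and 18.1% of all genes fell by more. It was -2.68 with library size alone.

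**Figure D1:**
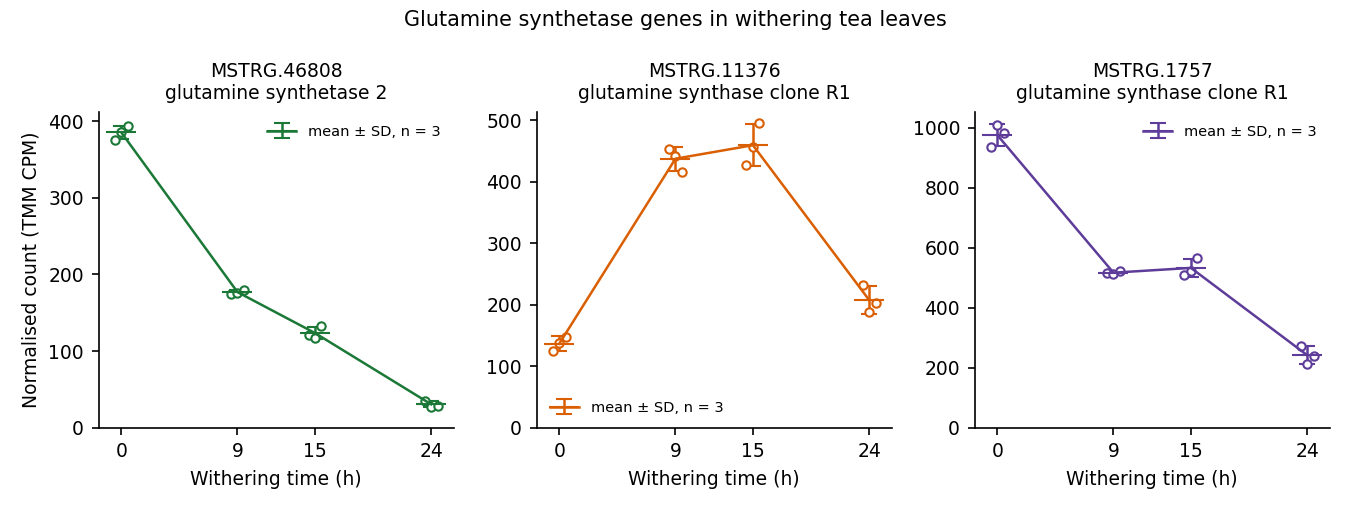
TMM-scaled CPM of the 3 glutamine synthetase genes (vertical axes, each from 0) against hours of withering, with open points for the libraries and lines through the means with SD bars (n = 3). MSTRG.46808 falls at each step, MSTRG.11376 is highest at 9 and 15 h, and MSTRG.1757 levels off between 9 and 15 h.

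Between 9 and 15 h neither MSTRG.11376 nor MSTRG.1757 passed the test. The log2 fold change at 15 h against 9 h was 0.070 ± 0.094 for MSTRG.11376 (edgeR, adjusted p = 0.604) and 0.044 ± 0.085 for MSTRG.1757 (edgeR, adjusted p = 0.732). Between 15 and 24 h MSTRG.11376 and MSTRG.1757 fell by nearly the same factor. The log2 fold change of MSTRG.1757 at 24 h against 15 h was -1.14 ± 0.086 (edgeR, adjusted p = 1.72e-07), beside the -1.15 of MSTRG.11376.

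Counted by call, 1 of the 3 genes rose and 2 fell at 9 h against 0 h, at 15 h against 0 h and at 24 h against 0 h, with no overlap between the libraries for any of the 3 in these comparisons on the TMM scale. Of all genes tested, 27.1% rose and 26.8% fell at 9 h against 0 h, 30.3% rose and 29% fell at 15 h against 0 h, and 34.7% rose and 39.1% fell at 24 h against 0 h. Called in either direction were 53.9%, 59.2% and 73.8% of all genes, and with no overlap 67%, 68.8% and 76.1%. At 15 h against 9 h, 1 gene fell and 2 were not called, where 37.9% of all genes were called, 19.8% higher and 18.1% lower, and 55% did not overlap. In the step to 24 h against 15 h all 3 fell with no overlap, where 56.7% of all genes were called, 25.9% higher and 30.8% lower, and 60.4% did not overlap. Most genes were called in each comparison other than 15 h against 9 h, and a call by itself does not set the 3 genes apart. With library size alone the share of called genes that were higher was 37.9% in place of 50.3% at 9 h against 0 h. It was 35.6% in place of 51.1% at 15 h and 28.2% in place of 47.0% at 24 h, each against 0 h, and 25.2% in place of 45.7% at 24 h against 15 h.

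**Figure D2:**
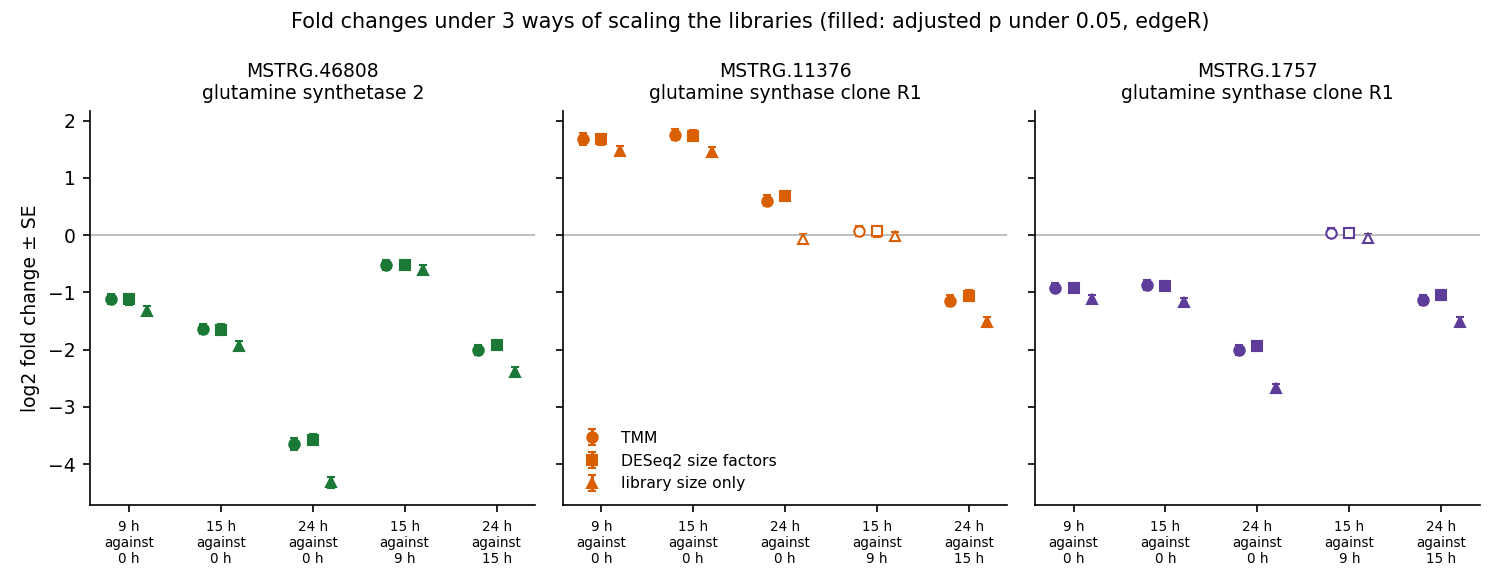
The log2 fold change ± SE of each gene (vertical axis) in the 5 comparisons (horizontal axis), with TMM factors (circles), DESeq2 size factors (squares) and library size alone (triangles), filled where the adjusted p was under 0.05 in edgeR. MSTRG.11376 at 24 h against 0 h is called with the other scalings but not with library size alone.

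Shares of the summed counts of the 3 genes do not depend on how the libraries are scaled. Over the 4 times, MSTRG.1757 held 65.1% ± 0.685, 45.7% ± 0.827, 47.8% ± 0.409 and 50.4% ± 0.488 of these counts (SD, n = 3 per time). MSTRG.11376 held 9.12% ± 0.530, 38.7% ± 1.26, 41.2% ± 0.723 and 43.3% ± 0.404. MSTRG.46808 held 25.7% ± 0.514, 15.6% ± 0.444, 11.1% ± 0.409 and 6.38% ± 0.217. The most counted gene was thus MSTRG.1757 at all 4 times, while MSTRG.11376 and MSTRG.46808 changed places in counts between 0 and 9 h. As counts also depend on transcript length, this is an order of counts and not of transcript levels.

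By library, the share of MSTRG.11376 was 8.68%, 8.98% and 9.71% for 0 h and 39.6%, 39.1% and 37.2% for 9 h. For 15 h it was 40.3%, 41.6% and 41.5%, and for 24 h 43.0%, 43.7% and 43.1%. None of these groups overlapped. The share of MSTRG.46808 was 26.2%, 25.2% and 25.8% for 0 h, 15.2%, 15.6% and 16.1% for 9 h, 11.5%, 10.7% and 11.1% for 15 h, and 6.55%, 6.45% and 6.13% for 24 h, again with no overlap. The share of MSTRG.1757 was lowest at 9 h, with 45.1%, 45.3% and 46.6%, and the libraries of each later time lay above those of the time before. The 95% Wilson interval of a library's share reached at most 0.649 percentage points to either side, for counting error only. With counts divided by the length of the locus, MSTRG.1757 held 52.7% at 24 h and 67.4% at 0 h, MSTRG.11376 held 41.3% at 24 h, and MSTRG.46808 held 6.01% at 24 h and 24.0% at 0 h. No test was made of the shares.

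**Figure D3:**
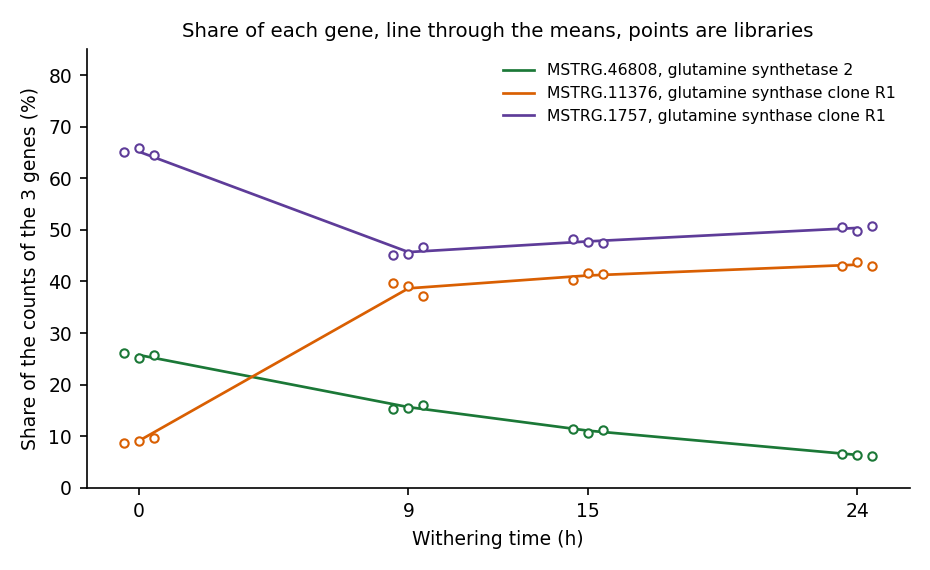
Share of each gene in the summed counts of the 3 genes in percent (vertical axis) against hours of withering, with a point for each library and lines through the means. MSTRG.11376 goes past MSTRG.46808 between 0 and 9 h, and MSTRG.1757 stays the most counted.

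The ratio between the clone R1 genes changed once and then held. MSTRG.11376 had 0.133, 0.136 and 0.151 counts per count of MSTRG.1757 in the 0 h libraries. The ratio was 0.878, 0.864 and 0.798 for 9 h, 0.837, 0.873 and 0.876 for 15 h, and 0.851, 0.877 and 0.848 for 24 h. The 0 h libraries stood apart, and the libraries at 9, 15 and 24 h overlapped. On the log2 scale the mean ratio was higher by 2.60 at 9 h than at 0 h. It differed by 0.026 at 15 h against 9 h and by -0.0052 at 24 h against 15 h, where the SD at a time was 0.027 to 0.094. The levels of both genes fell between 15 and 24 h while their ratio stayed within the spread between libraries.

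The ratios that include the plastid-type gene moved at every step. MSTRG.46808 had 0.402, 0.382 and 0.401 counts per count of MSTRG.1757 at 0 h, and 0.338, 0.344 and 0.346 at 9 h. The ratio was 0.238, 0.224 and 0.235 at 15 h and 0.130, 0.129 and 0.121 at 24 h, with no overlap between any of the times. On the log2 scale the mean was -1.34 ± 0.040, -1.55 ± 0.017, -2.11 ± 0.048 and -2.98 ± 0.059 (SD, n = 3). The change at 9 h against 0 h was thus -0.21, smaller than the -0.56 at 15 h against 9 h and the -0.87 at 24 h against 15 h. Set against MSTRG.11376, MSTRG.46808 had 2.83 ± 0.181, 0.405 ± 0.0250, 0.269 ± 0.0144 and 0.147 ± 0.00501 counts per count over the 4 times. The change in log2 ratio at 24 h against 0 h was -4.26.

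**Figure D4:**
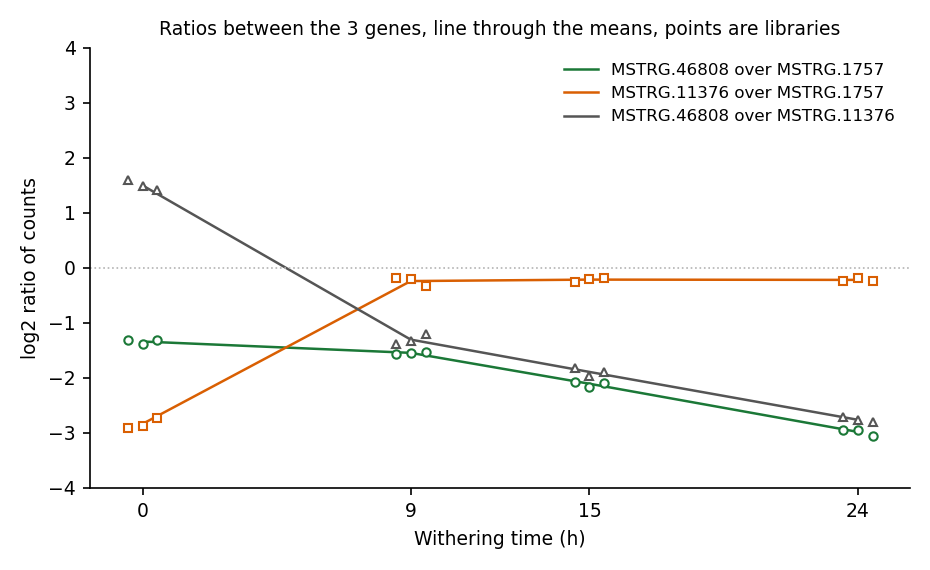
The log2 ratio of counts between each pair of genes (vertical axis) against hours of withering, with a point for each library and lines through the means. MSTRG.11376 over MSTRG.1757 is flat after 9 h, at -0.24, -0.21 and -0.22, while both ratios with MSTRG.46808 on top go on falling.

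Summed over the 3 genes, the level over the 4 times was 1497 ± 54.4, 1131 ± 13.7, 1116 ± 70.4 and 480 ± 55.0 CPM (SD, n = 3). The sum at 9 h was 75.5% of that at 0 h, and the sum at 24 h was 43.1% of that at 15 h and 32.1% of that at 0 h. The 15 h libraries overlapped the 9 h libraries. With library size alone the sum was 370 CPM at 24 h and 1832 CPM at 0 h. The clone R1 pair alone summed to 1112 ± 46.9, 954 ± 16.6, 992 ± 63.6 and 450 ± 51.1 CPM over the 4 times, and the 15 h libraries overlapped with those of 0 h, with MSTRG.11376 higher and MSTRG.1757 lower at 15 h. The 3 genes took 0.183%, 0.120%, 0.111% and 0.0370% of all counts.

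Of the 7 genes described as glutamine synthetase, glutamine synthase or glutamate-ammonia ligase, the 3 held 74.1% of the counts at 24 h and 93.2% at 0 h. The gene that gained most of the difference was MSTRG.37743 (CSS008937, Scaffold507 from 1538385 to 1544441, minus strand), another clone R1 gene. Over the 4 times it was at 60.0 ± 4.98, 79.3 ± 2.38, 81.6 ± 5.49 and 116 ± 18.4 CPM. In the 24 h libraries it stood at 137, 101 and 111 CPM, against 54.9, 64.9 and 60.3 CPM at 0 h. Its log2 fold change was 0.95 ± 0.11 at 24 h against 0 h (edgeR, adjusted p = 2.87e-06) and 0.51 ± 0.11 at 24 h against 15 h (edgeR, adjusted p = 0.00117). With library size alone the change at 24 h against 0 h was 0.29 (edgeR, adjusted p = 0.0155), and the call at 24 h against 15 h was lost, at 0.14. The log2 fold change at 9 h against 0 h was 0.40 ± 0.11 (edgeR, adjusted p = 0.00606), and 0.20 with library size alone, where it was not called.

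Among the 5 clone R1 genes, MSTRG.37743 held 5.09% ± 0.216, 7.65% ± 0.333, 7.58% ± 0.185 and 20.5% ± 0.744 of the counts over the 4 times. In the same sum MSTRG.1757 held 42.7% at 24 h and 82.9% at 0 h, and MSTRG.11376 held 11.6% at 0 h, 42.6% at 15 h and 36.7% at 24 h. MSTRG.11376 thus gained share by 9 h. MSTRG.37743 gained a smaller share by 9 h, with no overlap, and most of its share between 15 and 24 h. In that last step the levels of MSTRG.11376 and MSTRG.1757 fell. How the authors' counting assigned reads shared by near-identical copies is not given in the sources used here, so the split among genes with the same description is uncertain to that extent.

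MSTRG.2764 (CSS005056, Scaffold1167 from 1184224 to 1200695, minus strand), described as a glutamate-ammonia ligase, was at 44.3 ± 2.99, 156 ± 1.89, 126 ± 18.5 and 49.7 ± 6.51 CPM over the 4 times. Its log2 fold change was 1.81 ± 0.12 at 9 h against 0 h (edgeR, adjusted p = 3.14e-08) and -1.34 ± 0.12 at 24 h against 15 h (edgeR, adjusted p = 5.61e-07). The net change at 24 h against 0 h was 0.17 ± 0.11 (edgeR, adjusted p = 0.205), and with library size alone it was -0.50 and called (edgeR, adjusted p = 0.00264). Its log2 CPM over the 12 libraries had a Pearson r of 0.93 with that of MSTRG.11376, given as a description, since the libraries of a time are not independent points of a course.

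The other clone R1 genes were low. MSTRG.25784 (CSS050989, Scaffold319) was at 0.467 ± 0.0298 CPM at 24 h and 2.73 ± 0.387 at 0 h, and MSTRG.8156 (CSS016927, Scaffold154) was at 0.620 ± 0.212 CPM at 24 h and 2.50 ± 0.192 at 0 h. Both loci are 564 bp long. Their 24 h against 0 h log2 fold changes were -2.54 ± 0.24 (edgeR, adjusted p = 5.82e-07) and -2.02 ± 0.29 (edgeR, adjusted p = 2.85e-05). They rested on 23 to 35 counts and 27 to 45 counts per library at 24 h. Over the 7 genes, 2 rose and 4 fell at 24 h against 0 h, where 34.7% of all genes rose and 39.1% fell, and the median log2 fold change was -2.01, beside -0.14 over all genes tested. Scaled by library size alone, 1 rose and 5 fell, where 20623 of 26712 genes tested were called and only 5814 of those called were higher.

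**Figure D5:**
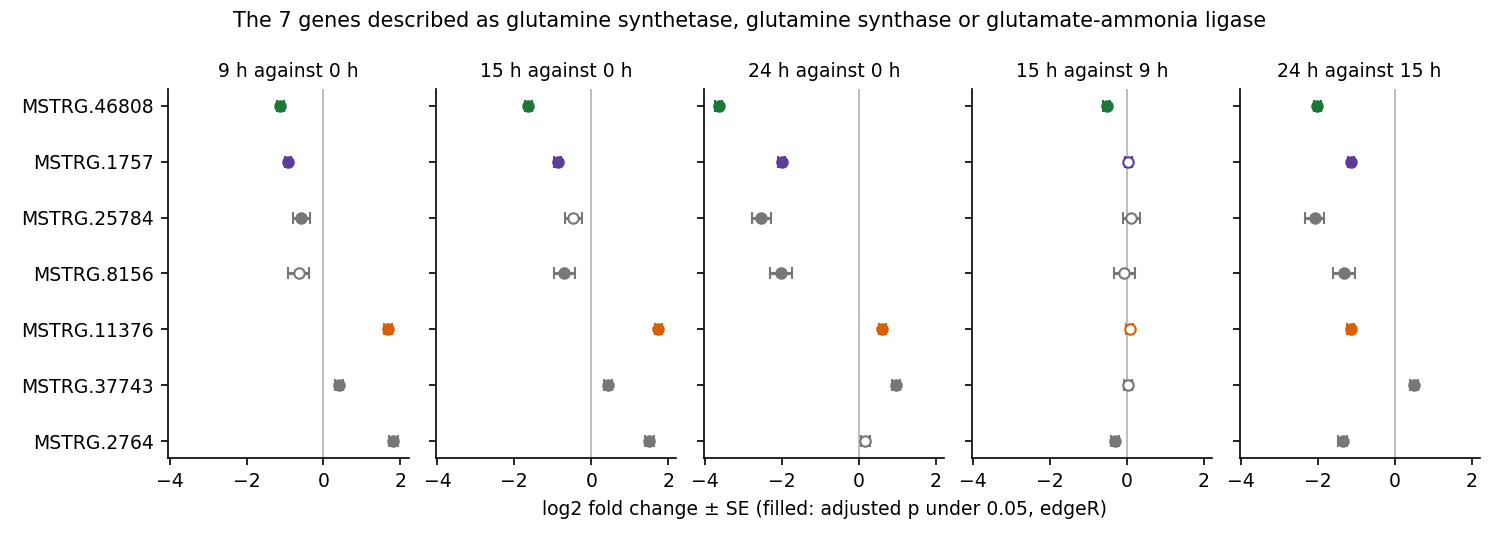
The log2 fold change ± SE (horizontal axis) of the 7 described genes in the 5 comparisons, with the 3 genes of the report in colour, filled where the adjusted p was under 0.05 in edgeR. MSTRG.37743 is the gene to the right of 0 at 24 h against 15 h, at 0.51, and the other 6 lie to the left.

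Described genes with a mean of at least 10 CPM were ranked by the Pearson r of their log2 CPM with that of each glutamine synthetase gene over the 12 libraries, which share their depth and scaling, so r is a description of likeness only. The genes most like MSTRG.46808 were MSTRG.29574, an allantoinase (the enzyme that opens the ring of allantoin in purine breakdown), MSTRG.27738, a chloroplast stem-loop binding protein, MSTRG.40821, a zinc-binding dehydrogenase, and MSTRG.29899, an elongation factor family protein. Their r was 0.998, 0.998, 0.997 and 0.997, in that order. The allantoinase was at 36.4, 17.8, 13.7 and 4.38 CPM at 0, 9, 15 and 24 h. Such courses were common, and 810 of 11811 genes had an r of at least 0.95 with MSTRG.46808.

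The genes most like MSTRG.1757 included genes for chloroplast proteins. They were MSTRG.14376, chaperonin-60alpha (a folding protein of plastids), MSTRG.51486, a Rossmann-fold protein, MSTRG.904, a chlorophyll A-B binding protein of the light-harvesting antenna, and MSTRG.29623, photosystem I subunit D-2. Their r was 0.997, 0.997, 0.996 and 0.995, and 610 genes reached 0.95. How many of the 610 encode chloroplast proteins was not counted. Chaperonin-60alpha was at 535, 160, 150 and 40.3 CPM, and photosystem I subunit D-2 at 625, 283, 319 and 120 CPM, at 0, 9, 15 and 24 h. Between MSTRG.1757 and MSTRG.46808 r was 0.98.

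MSTRG.11376 had fewer close matches, with 75 genes at an r of at least 0.95. The first was MSTRG.43846, phosphate transporter 2;1, at 3.61, 33.3, 33.7 and 6.62 CPM at 0, 9, 15 and 24 h (r = 0.993). It was followed by MSTRG.33713, aldehyde dehydrogenase 10A8 (r = 0.991), MSTRG.14297, NADP-malic enzyme 4, which makes pyruvate and NADPH from malate (r = 0.990), and MSTRG.23951, described as a heat shock protein (r = 0.989). MSTRG.23951 was at 37.0, 226, 206 and 80.1 CPM. Between MSTRG.11376 and MSTRG.46808 r was -0.12, and between MSTRG.11376 and MSTRG.1757 it was -0.20.

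Of the genes next to the 3 loci, MSTRG.46807, an AWPM-19-like gene, lies 996 bp from MSTRG.46808, whose level fell. It was at 10.6 ± 2.51 CPM at 24 h, against 3.18 ± 0.211 at 0 h, a log2 fold change of 1.73 ± 0.18 (edgeR, adjusted p = 1.63e-06). MSTRG.11377, nudix hydrolase homolog 17, lies 91337 bp from MSTRG.11376 on a scaffold of 3 genes and rose, like MSTRG.11376, at 9 h against 0 h, by a log2 fold change of 0.68 ± 0.091 (edgeR, adjusted p = 3.00e-05). By 24 h its log2 fold change against 0 h was -1.18 ± 0.092 (edgeR, adjusted p = 7.31e-08). On either side of MSTRG.1757 lie MSTRG.1756, at a distance of 3313 bp, and MSTRG.1755, at 114318 bp, with means of 25.8 and 15.3 counts per library. Like MSTRG.1757, MSTRG.1756 was called lower than at 0 h at 9 h (-2.24 ± 0.58, edgeR, adjusted p = 0.00512) and at 15 h (-1.75 ± 0.57, edgeR, adjusted p = 0.0173). Unlike MSTRG.1757, it was not called at 24 h against 0 h (-0.95 ± 0.56, edgeR, adjusted p = 0.138). Its mean was 0.610, 0.127, 0.180 and 0.313 CPM at 0, 9, 15 and 24 h. CSS030830, on the far side of MSTRG.46808, had 0 counts in every library.

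The nitrogen pathway around glutamine synthetase was described with 12 lists of genes matched by description. They held 160 genes, of which 126 were tested. At 9 h against 0 h, 44 rose and 35 fell (62.7% called, where 53.9% of all genes were called), and at 24 h against 0 h 55 rose and 51 fell (84.1%, where 73.8% of all genes were called). Beside these counts, the median log2 fold change over the 126 genes was 0.02 at 24 h against 0 h, and over all genes it was -0.14. The 2 genes of highest mean level in a list are named below, with levels at 0, 9, 15 and 24 h. Their fold changes at 24 h against 0 h are on the TMM scale, beside which library size alone shifted the median of all genes by -0.67.

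Glutamate synthase passes the amide nitrogen of glutamine on to 2-oxoglutarate. Of the 4 genes tested, 2 rose and 1 fell at 9 h against 0 h, and 2 rose and 2 fell at 24 h against 0 h. Over all genes, 27.1% rose and 26.8% fell at 9 h, and 34.7% rose and 39.1% fell at 24 h. MSTRG.38570, NADH-dependent glutamate synthase 1, was at 94.9, 304, 352 and 586 CPM, with a log2 fold change of 2.63 ± 0.12 at 24 h against 0 h (edgeR, adjusted p = 3.19e-10). MSTRG.28369, with the same description, was at 83.5, 261, 178 and 174 CPM (1.06 ± 0.14 at 24 h against 0 h, edgeR, adjusted p = 1.24e-05). The other genes of the list both fell at 24 h against 0 h. Together the 4 summed to 578, 789, 657 and 816 CPM over the 4 times. At 0 h the named genes were the smaller part of this sum, and at 24 h the larger part. The higher sum at 24 h thus does not describe each gene of the list.

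Glutamate dehydrogenase can release ammonium from glutamate. Of its 4 genes tested, 1 was higher and 3 lower at 9 h against 0 h, and 2 higher and 2 lower at 24 h. Beside these and the next list, 27.1% of all genes were higher and 26.8% lower at 9 h. At 24 h, 34.7% of all genes were higher and 39.1% lower. MSTRG.49935, glutamate dehydrogenase 2, was at 6.74, 9.96, 7.78 and 154 CPM, a log2 fold change of 4.52 ± 0.16 at 24 h against 0 h (edgeR, adjusted p = 4.16e-11). MSTRG.24393, of the same description, was at 29.4, 23.6, 36.5 and 54.9 CPM. All matched genes of this list summed to 90.3, 59.2, 63.8 and 217 CPM. The named genes were the smaller part of this sum at 0 h and the larger part at 24 h. Asparagine synthetase moves the amide of glutamine to aspartate, and 2 of the 3 genes of its list rose at both times, with none lower. MSTRG.21058, glutamine-dependent asparagine synthase 1, was at 4.56 ± 0.200, 196 ± 4.36, 249 ± 6.83 and 221 ± 3.66 CPM. Its log2 fold change at 9 h against 0 h was 5.43 ± 0.075 (edgeR, adjusted p = 1.75e-13). MSTRG.49305, asparagine synthetase 3, was at 90.1, 149, 176 and 208 CPM.

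Ammonium reaches glutamine synthetase from nitrite, from outside the cell and from photorespiration. MSTRG.20529, nitrite reductase 1, the 1 gene of its list, was at 135 ± 4.81, 25.3 ± 0.462, 41.5 ± 1.21 and 120 ± 5.71 CPM. Its log2 fold change was -2.41 ± 0.069 at 9 h against 0 h (edgeR, adjusted p = 2.34e-11) and -0.16 ± 0.066 at 24 h against 0 h (edgeR, adjusted p = 0.0408). This last difference was -0.083 and not called with DESeq2's size factors, -0.83 with library size alone (edgeR, adjusted p = 9.81e-08), and not called in some fits without a library. Of 7 ammonium transporters tested, 1 rose and 1 fell at 9 h, and 4 rose and 3 fell at 24 h, each against 0 h. Over all genes, 27.1% rose and 26.8% fell at 9 h (53.9% called). At 24 h, 34.7% of all genes rose and 39.1% fell (73.8% called). MSTRG.6537, ammonium transporter 1;1, was at 14.6, 31.1, 34.7 and 67.8 CPM, and MSTRG.21660, ammonium transporter 2, at 14.1, 15.8, 26.1 and 37.5 CPM.

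Of the 21 genes of the photorespiratory glycine and serine steps, 8 rose and 7 fell at 9 h against 0 h, and 5 rose and 11 fell at 24 h against 0 h. Of all genes, 27.1% rose and 26.8% fell at 9 h, and 34.7% rose and 39.1% fell at 24 h. The median log2 fold change of the 21 at 24 h was -0.65. MSTRG.16059, serine transhydroxymethyltransferase 1, which in Arabidopsis works beside the glycine decarboxylase that frees ammonium, was at 352, 120, 55.7 and 13.3 CPM. Its log2 fold change at 24 h against 0 h was -4.72 ± 0.18 (edgeR, adjusted p = 5.68e-11). MSTRG.9524, alanine:glyoxylate aminotransferase, was at 230, 386, 218 and 91.5 CPM.

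Aminotransferases carry the nitrogen on from glutamate. Of 9 tested, 4 rose and 3 fell at 9 h and 4 rose and 4 fell at 24 h, each against 0 h. Beside this list and the next, 27.1% of all genes rose and 26.8% fell at 9 h. At 24 h, 34.7% of all genes rose and 39.1% fell. MSTRG.51568, aspartate aminotransferase 3, was at 53.6, 333, 404 and 517 CPM, with a log2 fold change of 3.27 ± 0.14 at 24 h against 0 h (edgeR, adjusted p = 2.16e-10). MSTRG.40646, alanine-2-oxoglutarate aminotransferase 2, was at 158 and 192 CPM at 0 and 9 h, and at 44.7 CPM at 24 h. The glutamine amidotransferases, which use glutamine as an amide donor, had 7 higher and 7 lower of 22 tested at 9 h, and 9 higher and 11 lower at 24 h. MSTRG.36375, a CTP synthase, was at 268, 956, 674 and 735 CPM, and MSTRG.33795, pyridoxine biosynthesis 2, was at 114, 187, 178 and 150 CPM. For MSTRG.33795 the direction at 24 h against 0 h turned with library size alone (0.40 with TMM, -0.27 with library size, both called).

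The remaining lists were small apart from the senescence list. Beside their counts, 27.1% of all genes were higher and 26.8% lower at 9 h against 0 h. At 24 h against 0 h, 34.7% of all genes were higher and 39.1% lower. Phenylalanine ammonia-lyase, which frees ammonium from phenylalanine, had 3 higher and 2 lower of 6 at 9 h and 4 higher and 1 lower at 24 h. MSTRG.8319, phenylalanine ammonia-lyase 2, was at 109, 159, 272 and 482 CPM, and MSTRG.33319, PHE ammonia lyase 1, was at 232, 181, 188 and 223 CPM. The theanine-related list matched 3 genes by description, of which 2 rose and 1 fell at 9 h and 3 rose at 24 h. It does not hold MSTRG.33795, given above with the glutamine amidotransferases. The authors' paper identifies MSTRG.33795 as CsPDX2.1, a gene reported to hydrolyse theanine in vitro. MSTRG.24406 and MSTRG.49842, both arginine decarboxylase 2, were at 320, 1638, 815 and 511 CPM and at 37.5, 124, 94.3 and 241 CPM. The call of MSTRG.24406 at 24 h against 0 h was lost with library size alone (0.67 with TMM, 0.0076 with library size). The PII protein senses nitrogen in plastids, and MSTRG.46040, the GLNB1 homolog, was at 33.1, 14.7, 12.7 and 12.6 CPM. MSTRG.39478, the N-acetyl-l-glutamate kinase that PII binds in Arabidopsis, was at 56.1, 33.4, 37.3 and 55.3 CPM, with 15 h libraries from 17.4 to 49.5 CPM. Its call at 9 h against 0 h (-0.75 ± 0.27, edgeR, adjusted p = 0.0312) was lost in 6 of the 12 fits without a library. Of 44 senescence-associated genes tested, 14 rose and 7 fell at 9 h, and 20 rose and 15 fell at 24 h, where 53.9% and 73.8% of all genes were called at those times. MSTRG.51524 and MSTRG.16432, both senescence-associated gene 21, were at 10652 and 1804 CPM at 24 h, against 2671 and 160 CPM at 0 h.

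Genes used as markers of cell types moved over the same hours. The 102 matched mesophyll markers (genes of rubisco and the photosystems, 13 of them at 0 in every library) summed to 30310 to 37912, 9742 to 12128, 10869 to 14091 and 4841 to 5813 CPM over the 4 times. Of 83 tested, 59 fell and 16 rose at 24 h against 0 h, where 39.1% of all genes fell and 34.7% rose. MSTRG.12209, the rubisco small chain, was at 1077 CPM at 24 h, against 12690 CPM at 0 h, and MSTRG.36763, photosystem II subunit R, was at 337 CPM at 24 h, against 2222 CPM at 0 h. The defining leaf markers were thus present at all times, and their summed level was lowest at 24 h, as were MSTRG.46808 and MSTRG.1757. At 9 h against 0 h, 63 of the 83 fell and 1 rose, where 26.8% of all genes fell and 27.1% rose. The middle step differed. At 15 h against 9 h, 39 markers rose and 8 fell, where 19.8% of all genes rose and 18.1% fell. In that step MSTRG.46808 fell and MSTRG.1757 was not called.

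The 51 vascular markers (9 at 0 in every library) summed to 1060 to 1227, 1003 to 1054, 1060 to 1208 and 1595 to 1899 CPM. Of 34 tested, 15 rose and 14 fell at 24 h against 0 h, beside the same shares of all genes. MSTRG.38590, phloem protein 2-A9, was at 497, 203, 346 and 661 CPM, and MSTRG.27244, phloem protein 2-A1, at 156, 228, 172 and 255 CPM. The 13 root markers (6 at 0 in every library) summed to 97.4 to 128, 116 to 129, 201 to 239 and 377 to 467 CPM. Of only 5 tested, 3 rose and 1 fell at 24 h against 0 h, with MSTRG.10314, root hair specific 19, at 353 CPM at 24 h, against 35.0 CPM at 0 h, and MSTRG.49135, root hair specific 2, at 53.5 CPM at 24 h, against 12.3 CPM at 0 h. As plucked shoot tips were sequenced, the root markers cannot be read as root cells here. The part of the mesophyll, vascular and root markers in the course of the glutamine synthetase genes was not tested.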

How the data were processed

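RNA of 12 tea leaf libraries (0, 9, 15 and 24 h, 3 each) was sequenced by the authors, who deposited raw whole-number counts for each gene in 1 table. Tools named in the submitters' processing notes are HISAT2 2.0.5, StringTie 1.3.1, Trimmomatic and FastQC 0.10.1. The sources used here do not give the build, strandedness or counter, and reads of overlapping or near-identical genes may be split in unknown ways. Times come from titles and source names, and the table's columns carry a prefix that differs from the titles by 1 letter. Every column was used.

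The counts were filtered with filterByExpr by time, scaled by TMM and tested by quasi-likelihood (edgeR 4.0.16, R 4.3.3) in 1 fit of all libraries on the factor time. P-values were adjusted after Benjamini-Hochberg over 26712 genes, with a threshold of 0.05. The standard error is the log2 fold change divided by the square root of F. Shares, ratios and sums came from the counts and CPM, with no test. Likeness used log2 CPM (prior count 2) of described genes. The fit was tested on simulated data. Alternatives were DESeq2 1.42.0, other scalings, filters, a fold of at least 2, a replicate block and each library left out. Figures were drawn with matplotlib 3.10.9.

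The 3 genes, the lists and the tests were chosen with earlier results of these data known. Named genes are the 3, the other genes of the family by description, the 2 of highest mean CPM per list, the 4 most alike per gene, and the nearest gene on each side. Lists were matched by words in the descriptions. N-acetylglutamate synthases, cofactor genes, phosphoglycerate kinases and the like, which the words caught by chance, were left out after the descriptions were read. No library appeared to be deposited more than once.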

Additional observations from a re-analysis of the deposited data

How the results depend on the processing

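For the 3 genes, each call and direction held with DESeq2's test, with DESeq2's size factors, with other filters and with only the groups compared. With library size alone, MSTRG.11376 at 24 h against 0 h was -0.065, and at 15 h against 9 h MSTRG.11376 was -0.020 and MSTRG.1757 -0.047 (log2). That scaling shifted the median of all genes by -0.20, -0.29 and -0.67 at 9, 15 and 24 h against 0 h. Asking for a fold of at least 2 removed the calls of MSTRG.1757 at 9 h (-0.92) and 15 h (-0.87) and of MSTRG.11376 at 24 h (0.60), each against 0 h, and of MSTRG.46808 at 15 h against 9 h (-0.52).

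It left 7078 of 14406 called genes at 9 h against 0 h, 8552 of 15819 at 15 h against 0 h, 3688 of 10111 at 15 h against 9 h and 7499 of 15136 at 24 h against 15 h. In the pathway lists it left 37, 51, 18 and 38 calls in those comparisons, in place of 79, 87, 64 and 87. With libraries left out in turn, the uncalled changes at 15 h against 9 h ranged from -0.010 to 0.12 for MSTRG.11376 and from -0.025 to 0.074 for MSTRG.1757, below 0 without 15 h replicate 3, and no call of the 3 genes was lost.

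Per locus length the shares at 0, 9, 15 and 24 h were 24.0%, 14.8%, 10.5% and 6.01% for MSTRG.46808 and 67.4%, 48.1%, 50.1% and 52.7% for MSTRG.1757, and at 9, 15 and 24 h 37.1%, 39.4% and 41.3% for MSTRG.11376. The sum of the 3 genes was 1832, 1202 and 370 CPM at 0, 9 and 24 h with library size alone, and 1117 CPM at 9 h with DESeq2's size factors.

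Replicate numbers did not pair the libraries (correlation of deviations -0.0789 to 0.0611 in 18 same-numbered pairs). A fit with the replicate block called 14053, 15435, 19393, 9602 and 14654 genes at 9, 15 and 24 h against 0 h, 15 h against 9 h and 24 h against 15 h, and changed no call of the 3 genes.

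Among the other named genes, with library size alone MSTRG.2764 was -0.50, MSTRG.33795 -0.27 and MSTRG.38590 -0.26 at 24 h against 0 h, MSTRG.21660 was -0.039 at 9 h against 0 h and MSTRG.37743 -0.049 at 15 h against 9 h. With DESeq2's size factors and with its test, MSTRG.33319 was 0.021 and MSTRG.39478 0.056 at 24 h against 0 h. With library size alone both were called lower there, at -0.72 and -0.69, and the call of MSTRG.27244 was lost, at 0.040. With libraries left out, MSTRG.39478 ranged from -0.12 to 0.057 there, above 0 without 24 h replicate 2. At 15 h against 9 h MSTRG.8156 ranged from -0.19 to 0.12, above 0 without 15 h replicate 1, and MSTRG.37743 from -0.038 to 0.071, below 0 without 15 h replicate 3. The cause of these changes was not tested.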
